A study of Mus musculus with 8 samples.

Results

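The genes described here encode the subunits, activators, inhibitor and assembly factors of the proteasome, measured on microarrays in the striatum of wildtype mice and of mice heterozygous for Brd2. They were chosen by name: a gene was taken where a non-control probe carried the symbol Psm followed by 1 letter from a to g and a number. This rule found 49 genes, read by 62 probes among 39429 probes on the arrays. The brightest probe stood for a gene, which mattered for the 12 genes with several probes and not for the 37 genes with 1. A gene was tested where its probe was well above background, as marked by the scanner software, in at least 4 of the 8 samples. Of the 49 genes, 47 passed this filter and were tested among 19844 genes in all. Psma8 and Psmb11, core subunits known from testis and from thymus, were well above background in 0 of the 8 samples and have no difference here. Psmc3ip, a recombination factor that bears the name of a proteasome subunit but is not one, was tested and is kept apart from the groups below.

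The wildtype group held 4 samples and the heterozygous group held 4 samples with 1 Brd2 allele disrupted by a gene-trap insertion (Brd2+/-). All were adult female C57Bl/6j mice of backcross generation 7, born to crosses of heterozygous parents and genotyped by PCR across the insertion. The insertion is present in every cell of the animal, and Brd2 encodes a bromodomain protein that binds acetylated histones. One tissue label reads prefrontal cortex striatum and another reads striatum. In both groups, replicates 1 and 3 were labelled with Cy3 and replicates 2 and 4 with Cy5, and a pair of samples of the same genotype shared each of the 4 arrays. The replicates are described as biological, without a statement of how many animals gave each sample, so the tests measure the spread between these samples.

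The check of the labels was Brd2 itself. Its normalized log2 intensity was 13.10, 12.98, 12.64 and 12.70 in wildtype replicates 1 to 4 and 11.92, 11.83, 12.57 and 11.70 in heterozygous replicates 1 to 4. The difference was -0.85 on the log2 scale (SE 0.192), which is 55.4% of the wildtype level, with a Benjamini-Hochberg adjusted p of 0.429 in limma. Heterozygous replicate 3 lay close to the lowest wildtype sample, so it is called the library labelled heterozygous replicate 3 below, and values are also given without it. The share of spots well above background ran from 37.7% in that library to 47.6% in the Cy3 samples and from 65.9% to 75.5% in the Cy5 samples. Markers of striatal projection neurons were well above background in all 8 samples for 9 of 10 genes. All 10 had a negative difference (median -0.43), 2 of them at an unadjusted p below 0.05, and the log2 of the summed level of the 7 genes measured in every sample spanned 18.36 to 18.60 for wildtype and 17.37 to 18.76 for heterozygous samples. Markers of cortical excitatory neurons had a median difference of 1.43, with 5 of 7 higher at an unadjusted p below 0.05 and a log2 summed level of 11.62 to 12.95 in wildtype against 13.15 to 14.72 in heterozygous samples. Among these markers, Slc17a7, Tbr1, Neurod6 and Emx1 were well above background in 2 of 4 wildtype samples. Markers of choroid plexus and ependyma were highest in the library labelled heterozygous replicate 3, by a median of 2.03 over the wildtype mean. Their median difference was 0.46, with 5 of 6 positive against 45.6% of all genes. At an unadjusted p below 0.05 in limma there was 1 of the 6, against 8.69% of all genes. Median differences of the other marker lists were 0.02 for endothelial cells, -0.28 for blood cells, 0.13 for oligodendrocytes and -0.03 for astrocytes. The part of these markers and of that library in the results below was not tested, except where values without the library are given.

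The proteasome is the protease that degrades proteins tagged with ubiquitin. Its core particle is a barrel of stacked rings, the outer ones built from alpha subunits and the inner ones from beta subunits, of which Psmb5, Psmb6 and Psmb7 cut peptide bonds. In cells exposed to interferon, and in immune cells, Psmb8, Psmb9 and Psmb10 take the places of these catalytic subunits and form the immunoproteasome, which supplies peptides for class I antigen presentation. The cap (the regulatory particle) sits on the end of the barrel. Its base holds a ring of ATPases that unfold the substrate, and its lid holds the enzyme that removes ubiquitin. In neurons the proteasome turns over synaptic proteins, and the transcription factor Nfe2l1 is known to raise proteasome genes together when the enzyme is inhibited.

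Promoter sequence is shown for the immunoproteasome genes Psmb8 and Psmb9, which lie close to Brd2, and for Psmb5, the constitutive counterpart of Psmb8. The probes of Brd2 and Psmb9 were 70.2 kb apart and those of Brd2 and Psmb8 were 88.8 kb apart on chromosome 17 (mm9, the build of the array files). The promoters come from RefSeq on GRCm38.p6 and are written 5′ to 3′ on the strand of the gene, ending at the base before the start of transcription. Psmb8 is at chr17:34197945-34198194 on the plus strand, Psmb9 at chr17:34187331-34187530 on the minus strand and Psmb5 at chr14:54617996-54618245 on the minus strand. Capitals mark TTCNNNGAA, the core of a STAT site, in Psmb8, and TGACNNNGC, the core bound by Nfe2l1 and Nfe2l2, in Psmb5.
Psmb8: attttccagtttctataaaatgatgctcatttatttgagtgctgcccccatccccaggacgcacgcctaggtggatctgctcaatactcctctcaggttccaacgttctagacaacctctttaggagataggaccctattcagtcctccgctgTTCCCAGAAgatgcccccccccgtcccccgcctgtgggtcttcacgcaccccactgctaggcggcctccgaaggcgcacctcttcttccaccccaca
Psmb9: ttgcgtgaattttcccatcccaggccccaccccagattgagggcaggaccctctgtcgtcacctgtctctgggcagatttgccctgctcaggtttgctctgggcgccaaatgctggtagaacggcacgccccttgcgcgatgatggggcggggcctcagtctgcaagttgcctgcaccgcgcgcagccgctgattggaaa
Psmb5: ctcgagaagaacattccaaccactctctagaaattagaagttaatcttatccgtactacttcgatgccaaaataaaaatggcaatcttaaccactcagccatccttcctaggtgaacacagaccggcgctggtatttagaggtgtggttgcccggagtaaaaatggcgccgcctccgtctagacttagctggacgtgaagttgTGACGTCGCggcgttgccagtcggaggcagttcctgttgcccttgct
The start of Psmb9 lies 226 bases from that of Tap1, the peptide transporter gene on the opposite strand, so this stretch is upstream of both genes.

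These promoters were searched with those of the other members, over the 250 bases before each start and on both strands. RefSeq windows matched 41 of the 49 members, with 44 windows in all. TGACNNNGC was found in 5 of the 44 windows (11.4%), those of Psmb5, Psmb6, Psmc6, Psmd9 and Psmd12, against 10.2% of 32851 windows of all genes. GAAA followed by any 2 bases and GAAA, the core of an interferon-response element, was found in 3 windows (6.82%), those of Psmb3, Psmd4 and Psmd9, against 2.98% of all windows. TTCNNNGAA was found in 2 windows (4.55%), those of Psmb8 and Psmg1, against 7.02%. Psmd9 was the member with more than 1 of these motifs. Median GC content was 57.6% in the members' windows and 52.4% in all windows. A match describes letters in a window, not a bound site.

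Proteasome mRNA showed no genotype difference past the threshold. With limma and Benjamini-Hochberg adjustment over all genes tested, 0 of 47 members had an adjusted p below 0.05, as did 0% of the 19844 genes, and the smallest adjusted p among the members was 0.520. At an unadjusted p below 0.05 there were 5 members (10.6%) against 8.69% of all genes. On the higher side were 4 of the 47, Psmb10, Psme4, Psmd13 and Psmd11, where 3.9% of all genes were, and on the lower side was 1, Psma1, where 4.8% of all genes were. The members' differences ran from -0.31 to 0.66 on the log2 scale with a median of 0.003, beside a median of -0.02 over all genes. Of the 47 genes, 24 had a positive difference (51.1%) against 45.6% of all genes. The median size of a member's difference, sign aside, was 0.14, and the same over all genes was 0.14.

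The precision behind these values was moderate. The 95% confidence interval of a member's difference extended a median of 0.40 to either side on the log2 scale. It lay wholly between -1 and 1 for 44 of the 47 members, the others being Psmb10, Psmd8 and Psmd11, so for these 44 a doubling lay outside the interval. As many as 45 members had a difference within 0.5 of 0. Signal was high: 44 of the 47 members were well above background in all 8 samples (93.6%), against 58.7% of all genes tested. The other 3 were Psmc3ip, Psme4 and Psmf1.

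**Figure D1:**
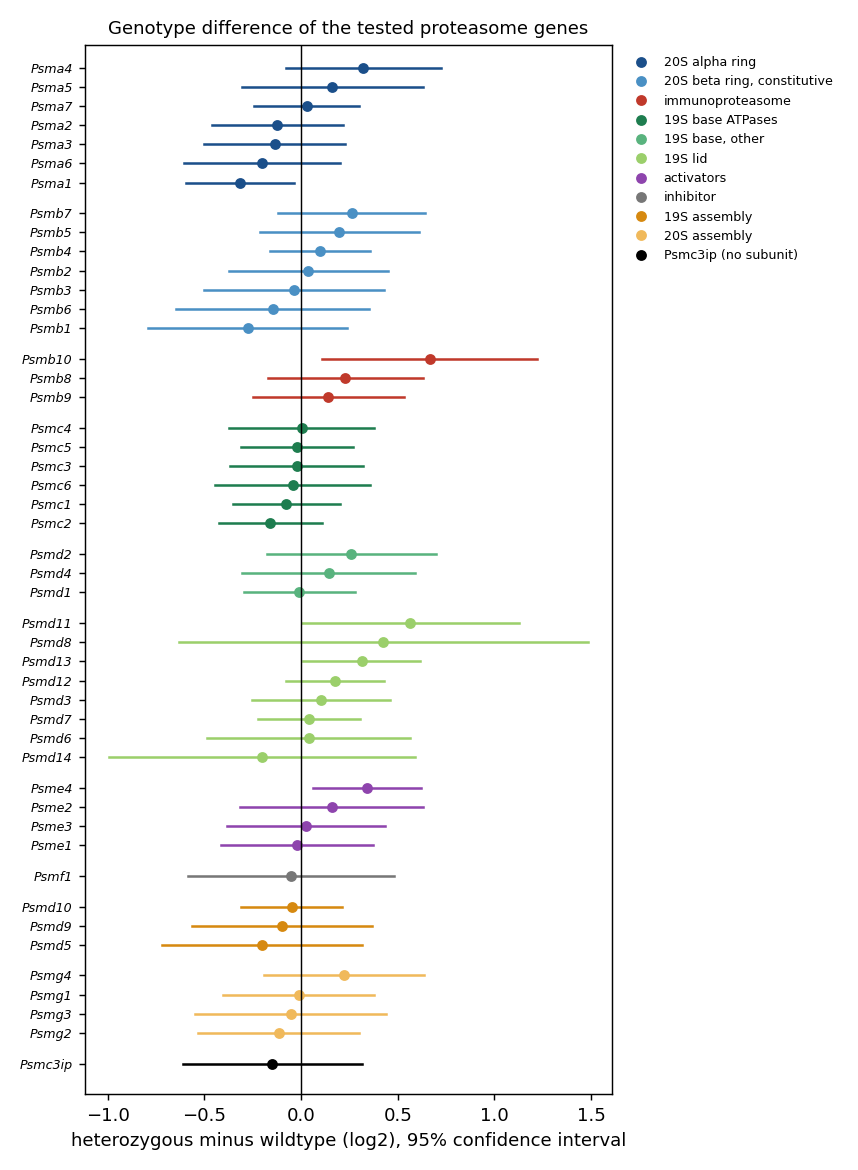
Heterozygous minus wildtype difference (x axis, log2) of the 47 tested genes, grouped by role, with points for the estimate and bars for the 95% confidence interval from limma. The intervals of all genes except Psmb10, Psme4, Psmd13, Psmd11 and Psma1 include 0, and none of these 5 passed the adjusted threshold.

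The immunoproteasome subunits had the highest median among the groups of core subunits. All 3 differences were positive (median 0.23), and 1 of the 3, Psmb10, had an unadjusted p below 0.05. Psmb10 (the inducible counterpart of Psmb7), read by a probe at chr8:108459677-108459736 (mm9), gave a log2 intensity of 12.01, 12.40, 12.38 and 12.37 in wildtype replicates 1 to 4. In heterozygous replicates 1 to 4 it gave 12.48, 12.82, 13.62 and 12.90. Every heterozygous sample was above every wildtype sample, and the library labelled heterozygous replicate 3 was the highest. Such separation of the groups, with the dye effect removed, was seen for 2 of the 43 members measured in all samples (4.65%), Psmb10 and Psme4, both on the higher side, against 8.7% of all genes, of which 3.27% were on that side and 5.43% on the lower side. Mean log2 intensity of Psmb10 was 12.29 ± 0.19 (SD, n = 4) for wildtype against 12.95 ± 0.48 (SD, n = 4). The difference of 0.66 (SE 0.240) is 1.59-fold, with an adjusted p of 0.520 in limma. It was 0.85 among the Cy3 samples and 0.48 among the Cy5 samples. Without the library labelled heterozygous replicate 3 it was 0.40, with an adjusted p of 0.386.

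Psmb8 (the inducible counterpart of Psmb5) gave 9.34, 8.98, 9.72 and 9.16 in wildtype replicates 1 to 4 and 9.28, 9.37, 9.85 and 9.62 in heterozygous replicates 1 to 4. The groups overlapped, and among the Cy3 samples the wildtype values lay between the heterozygous ones. The Psmb8 difference was 0.23 (SE 0.174, adjusted p = 0.700 in limma), 0.03 among the Cy3 samples and 0.43 among the Cy5 samples. Psmb9 (the inducible counterpart of Psmb6) gave 8.60, 8.63, 8.89 and 8.73 in wildtype samples and 8.39, 8.91, 8.94 and 9.17 in heterozygous samples. Here heterozygous replicate 1 was the lowest of all samples and the other heterozygous samples were above all wildtype samples. The Psmb9 difference was 0.14 (SE 0.169, adjusted p = 0.807), with -0.08 in the Cy3 samples and 0.37 in the Cy5 samples. With 1 sample left out, the Psmb9 difference ran from 0.07 without wildtype replicate 2 to 0.30 without heterozygous replicate 1, and that of Psmb8 from 0.15 to 0.39 without the same samples. A second Psmb9 probe was not tested: it exceeded background in 0 wildtype and 2 heterozygous samples.

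Microglia are a cell type known to express the immunoproteasome, so their markers are given beside these genes. All 10 microglia markers, among them Cx3cr1, Tmem119 and P2ry12, were well above background in every sample. Of these 10, 4 had a positive difference, against 45.6% of all genes, and the median was -0.10. At an unadjusted p below 0.05 there were 0, against 8.69% of all genes. The log2 of their summed level spanned 15.23 to 15.77 for wildtype and 15.41 to 15.67 for heterozygous samples. Markers of choroid plexus and ependyma had median deviations from the wildtype mean of -0.61, 0.21, 2.03 and 0.74 in heterozygous replicates 1 to 4. Psmb10 deviated by 0.19, 0.53, 1.33 and 0.61 in the same samples. The part of microglia, or of choroid plexus and ependyma, in the Psmb10 value was not tested. In bulk tissue, fewer cells of a type and less RNA per cell cannot be told apart.

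The constitutive catalytic subunits overlapped between genotypes. Psmb5, the chymotrypsin-like subunit, gave 14.87, 15.07, 14.71 and 15.48 in wildtype replicates 1 to 4 and 15.05, 15.09, 15.49 and 15.28 in heterozygous replicates 1 to 4. Wildtype replicate 4 and the library labelled heterozygous replicate 3 were the highest, and the difference was 0.20 (SE 0.177, adjusted p = 0.740 in limma). Psmb6, the caspase-like subunit, gave 14.75, 14.63, 14.06 and 14.33 against 14.26, 13.85, 14.71 and 14.36. Its difference of -0.15 (SE 0.216, adjusted p = 0.844) was smaller than the range within either genotype. Psmb7, the trypsin-like subunit, gave 12.54, 12.19, 12.84 and 12.58 against 12.78, 12.89, 12.55 and 12.97. The Psmb7 difference was 0.26 (SE 0.166, adjusted p = 0.662), with -0.02 in the Cy3 samples and 0.55 in the Cy5 samples. For Psmb5 the difference was 0.48 in the Cy3 and -0.09 in the Cy5 samples, and for Psmb6 it was 0.08 and -0.38. Each dye holds other samples, 2 of each genotype, and whether these differences part by dye was not tested. With 1 sample left out, the Psmb5 difference ran from 0.06 without the library labelled heterozygous replicate 3 to 0.34 without wildtype replicate 4. That of Psmb7 ran from 0.12 without wildtype replicate 2 to 0.39 without wildtype replicate 3, and that of Psmb6 from -0.34 without wildtype replicate 3 to 0.009 without heterozygous replicate 2.

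**Figure D2:**
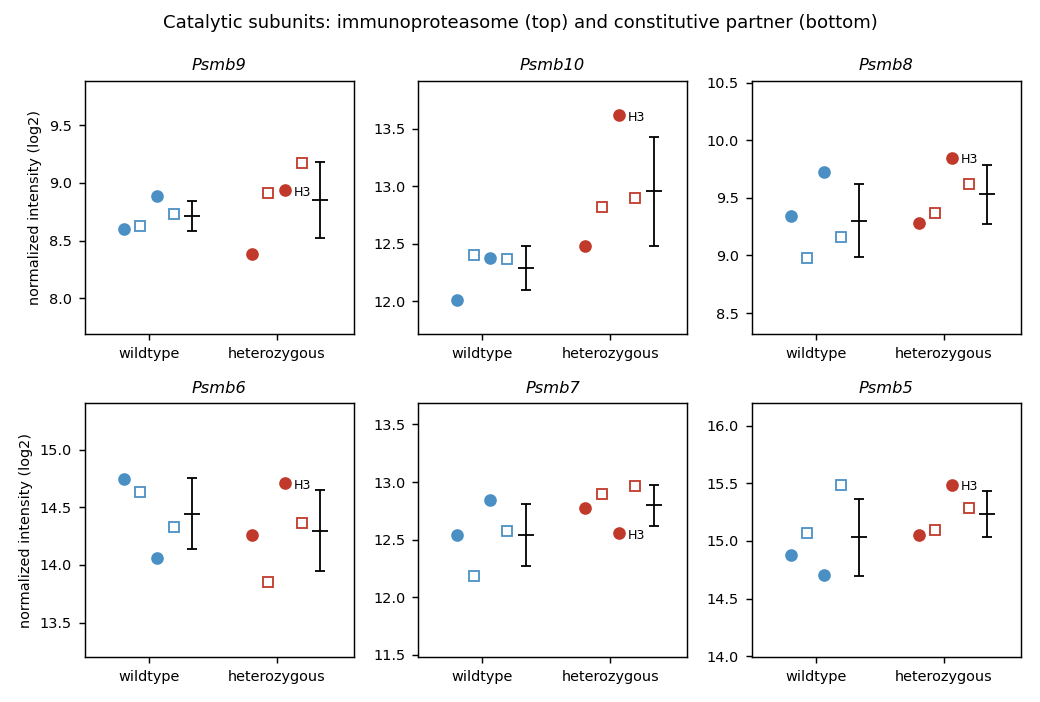
Normalized log2 intensity (y axis) of the immunoproteasome subunits Psmb9, Psmb10 and Psmb8 (top) and of their constitutive counterparts Psmb6, Psmb7 and Psmb5 (bottom), with filled circles for Cy3 samples, open squares for Cy5 samples, and the mean and SD of 4 samples at the right of each group. H3 marks the library labelled heterozygous replicate 3, and Psmb10 is the gene of the 6 whose groups do not overlap. Each panel has its own y axis, which does not start at 0.

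The constitutive core as a whole was centred near 0, with 7 of 14 differences positive and a median of -0.003. In the alpha ring, which gates the barrel, 3 of 7 differences were positive (median -0.12) and 1 of the 7, Psma1, had an unadjusted p below 0.05. Psma1 gave 12.60, 12.51, 12.40 and 12.38 in wildtype replicates 1 to 4 and 12.05, 12.41, 11.998 and 12.18 in heterozygous replicates 1 to 4. Only heterozygous replicate 2 reached into the wildtype range. Mean log2 intensity was 12.47 ± 0.10 (SD, n = 4) against 12.16 ± 0.19 (SD, n = 4). The Psma1 difference was -0.31 (SE 0.121), which is 80.4% of the wildtype level, with an adjusted p of 0.531 in limma. Within the dyes it was -0.48 in Cy3 and -0.15 in Cy5 samples. The other alpha subunits had differences of -0.12 for Psma2, -0.14 for Psma3, 0.32 for Psma4, 0.16 for Psma5, -0.20 for Psma6 and 0.03 for Psma7. Psma2 and Psma3 rest on 2 wildtype samples, because the spots of wildtype replicates 1 and 2 were left out as outliers by the scanner software.

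Among the 7 constitutive beta subunits, 4 had a positive difference and the median was 0.04. Psmb1, a beta subunit without protease activity, gave 12.51, 12.37, 12.55 and 12.56 in wildtype replicates 1 to 4 and 12.38, 12.60, 11.47 and 12.42 in heterozygous replicates 1 to 4. The library labelled heterozygous replicate 3 lay apart below the other 7 samples. The Psmb1 difference was -0.28 (SE 0.223, adjusted p = 0.716 in limma), and -0.03 without that library. The remaining beta subunits, which have structural roles, had differences of 0.04 for Psmb2, -0.04 for Psmb3 and 0.10 for Psmb4. Psmb3 lacks wildtype replicate 2 and heterozygous replicate 4, left out as outliers.

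The cap had 10 of 17 positive differences and a median of 0.04. Its ATPases, Psmc1 to Psmc6, had differences from -0.16 to 0.003, the narrowest range among the base ATPases, the other base subunits and the lid, with a median of -0.03, and 1 of the 6 was positive. Psmc2 gave 13.77, 13.79, 13.53 and 13.78 in wildtype replicates 1 to 4 and 13.74, 13.49, 13.55 and 13.45 in heterozygous replicates 1 to 4. Heterozygous replicate 1 lay with the higher wildtype samples and wildtype replicate 3 with the heterozygous ones, and the difference was -0.16 (SE 0.116, adjusted p = 0.691 in limma). The other base subunits are the scaffolds Psmd1 and Psmd2 and the ubiquitin receptor Psmd4. They had differences of -0.01, 0.26 and 0.14.

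In the lid, 7 of 8 differences were positive (median 0.14), and 2 of the 8, Psmd13 and Psmd11, had an unadjusted p below 0.05, beside 45.6% and 8.69% of all genes. A group of 8 genes is small for such shares. Psmd13, a structural subunit of the lid, gave 12.38, 12.14, 12.73 and 12.42 in wildtype replicates 1 to 4 and 12.73, 12.53, 12.89 and 12.79 in heterozygous replicates 1 to 4. Wildtype replicate 3 lay among the heterozygous values, and the other wildtype samples lay below all of them. The Psmd13 difference was 0.31 (SE 0.131, adjusted p = 0.558 in limma). Psmd11, named here after its values were seen, gave 10.40, 10.36, 11.19 and 11.31 in wildtype samples and 11.27, 11.58, 11.16 and 11.52 in heterozygous samples. Wildtype replicates 1 and 2, which shared an array, were low, and replicates 3 and 4 lay within the heterozygous range. The Psmd11 difference was 0.57 (SE 0.244, adjusted p = 0.573), between 0.33 and 0.78 with any 1 sample left out.

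Psmd8, another lid subunit, had the widest range over samples of all members. It gave 10.26, 12.19 and 12.07 in wildtype replicates 1, 3 and 4, with replicate 2 left out as an outlier, and 12.12, 12.34, 11.39 and 12.34 in heterozygous replicates 1 to 4. Wildtype replicate 1 was far below the rest. The Psmd8 difference was 0.43 (SE 0.446, adjusted p = 0.778 in limma) and became -0.09 without wildtype replicate 1. The deubiquitinase Psmd14 was the lid subunit with a negative difference, -0.20 (SE 0.342), and its 95% confidence interval from -0.99 to 0.59 was among the widest. The other lid subunits had differences of 0.10 for Psmd3, 0.04 for Psmd6, 0.04 for Psmd7 and 0.18 for Psmd12.

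Activators, the inhibitor and assembly factors had 4 of 12 positive differences and a median of -0.03. Psme4 encodes PA200, a nuclear activator that caps the barrel in place of the regulatory particle and is known to act on acetylated histones. It gave 8.74, 8.80, 8.70 and 8.75 in wildtype replicates 1 to 4 and 9.26, 8.99, 8.86 and 9.24 in heterozygous replicates 1 to 4. Every heterozygous sample was above every wildtype sample, and the wildtype samples lay within a narrow band. Mean log2 intensity was 8.75 ± 0.04 (SD, n = 4) against 9.09 ± 0.20 (SD, n = 4). The Psme4 difference was 0.34 (SE 0.121), 1.27-fold, with an adjusted p of 0.520 in limma. It was 0.34 in the Cy3 samples, 0.34 in the Cy5 samples and 0.43 without the library labelled heterozygous replicate 3. The probe was well above background in all 4 wildtype and in 3 of the heterozygous samples.

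The other activators, known to be induced by interferon or found in the nucleus, had differences of -0.02 for Psme1, 0.16 for Psme2 and 0.03 for Psme3. The Psme2 probes also list a transcript of the copy Psme2b, so their values cannot be assigned to 1 of these genes. The inhibitor Psmf1 had a difference of -0.05. Chaperones that assemble the base of the cap had differences of -0.20 for Psmd5, -0.10 for Psmd9 and -0.05 for Psmd10. Chaperones that assemble the core had differences of -0.01 for Psmg1, -0.11 for Psmg2, -0.05 for Psmg3 and 0.22 for Psmg4. Psmc3ip, no proteasome part, had -0.15. None of these 12 genes other than Psme4, and not Psmc3ip, had an unadjusted p below 0.05 in limma, and their adjusted p was 0.716 or above.

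**Figure D3:**
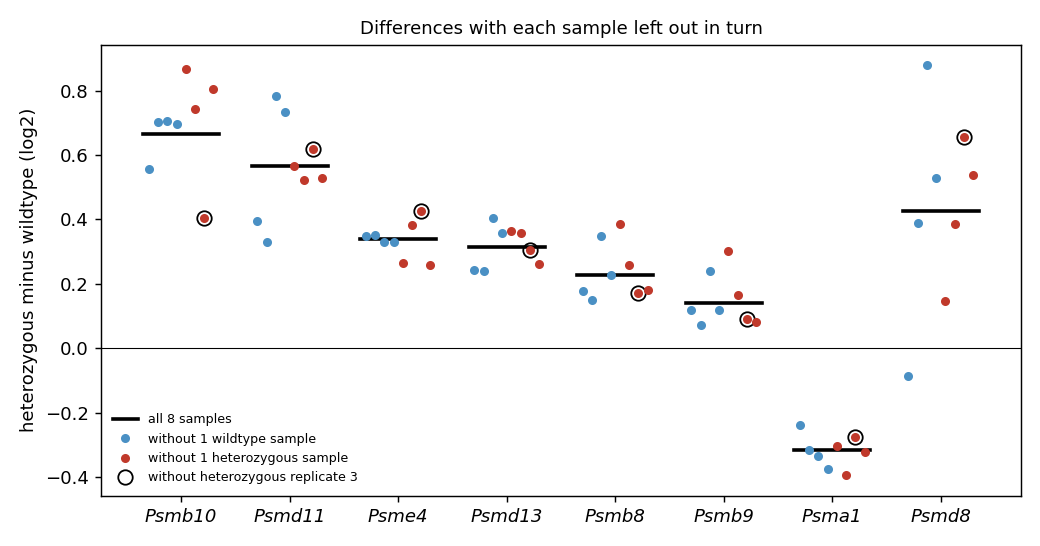
Heterozygous minus wildtype difference (y axis, log2) of 8 members with all 8 samples (black bars) and with each sample left out in turn (blue for a wildtype sample, red for a heterozygous sample, ringed for the library labelled heterozygous replicate 3). The difference of Psmb10 runs from 0.40 without that library to 0.87, and Psmd8 crosses 0 without wildtype replicate 1.

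A second probe for the same gene did not always repeat the first. Of 11 genes with at least 2 tested probes, 6 had differences of opposite sign on the 2 brightest, and the median gap between the paired differences was 0.24. The widest gap, 0.89, was that of the alpha subunit Psma4. Its brightest probe gave 11.72, 11.87, 12.33 and 12.33 in wildtype replicates 1 to 4 and 12.24, 12.28, 12.54 and 12.47 in heterozygous replicates 1 to 4, a difference of 0.32 (SE 0.174). Its second probe gave 11.31, 11.30, 11.42 and 11.49 in wildtype samples and 10.36, 10.70 and 11.24 in heterozygous replicates 1, 3 and 4, a difference of -0.56 (SE 0.182). The groups overlapped on the first probe, and on the second probe all measured heterozygous samples were below all wildtype samples. For Psme4 the second probe gave 7.80, 7.70, 7.64 and 7.74 in wildtype replicates 1 to 4 against 7.90, 7.60, 7.87 and 7.60. That probe was well above background in 2 samples of each genotype, its groups overlapped, and its difference was 0.02 (SE 0.103) beside 0.34 on the first.

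These 4 probes are printed because their readings of 1 gene part, and they match different stretches of the transcript. For Psma4 the first probe is at chr9:54804685-54805444 and the second at chr9:54802741-54804087, both on the plus strand of mm9 and both longer on the genome than the 60 bases of the probe, so each crosses an exon junction. For Psme4 the first is at chr11:30756055-30756114 and the second at chr11:30710953-30711012, on the plus strand of mm9. No letters are in capitals.
Psma4 first probe: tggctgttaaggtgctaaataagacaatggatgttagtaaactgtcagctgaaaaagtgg
Psma4 second probe: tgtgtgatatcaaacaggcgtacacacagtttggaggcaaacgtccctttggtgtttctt
Psme4 first probe: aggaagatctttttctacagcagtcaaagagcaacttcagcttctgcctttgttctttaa
Psme4 second probe: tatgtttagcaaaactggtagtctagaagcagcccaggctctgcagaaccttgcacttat
Psma4 probes start at bases 643 and 409 of the transcript, and Psme4 probes at bases 4962 and 1428. No cause of the unequal readings was tested.

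The members had 12 tested probes besides the brightest ones. At an unadjusted p below 0.05 there were 4 of these, 1 higher (Psmc3) and 3 lower (Psma4, Psmd10 and Psmg1), beside 8.88% of all probes, so the brightest probes alone leave out 3 readings on the lower side. For Psmb5 the probes gave 0.20 and 0.15, and for Psmc2 they gave -0.16 and -0.11. Psmd10 gave -0.05 and -0.29 and Psmg1 gave -0.01 and -0.24, with second probes whose genotypes did not overlap after the dye effect was removed. Such separation on the lower side was seen for 5.43% of all genes measured in every sample. Its share over all probes was not computed. Psmc3, an ATPase of the base, gave -0.02 and 0.31. Opposite signs were also found for Psmc1 (-0.08 and 0.03), Psmd9 (-0.10 and 0.05), Psmd12 (0.18 and -0.08) and Psme2 (0.16 and -0.15). With the mean of a gene's probes in place of the brightest, the Psme4 difference was 0.18 (SE 0.097), and that of Psmb10, which has 1 probe, was 0.66.

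**Figure D4:**
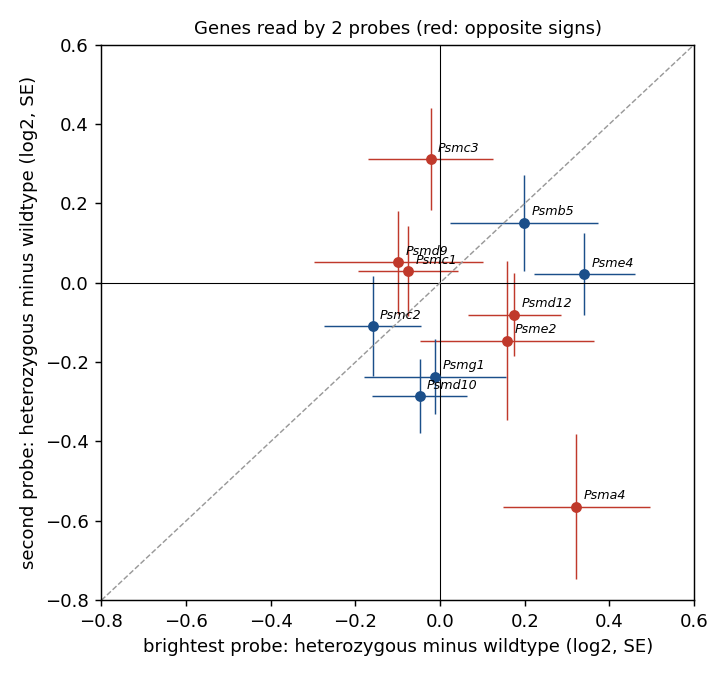
Difference between genotypes (log2, heterozygous minus wildtype) on the brightest probe (x axis) against that on the second probe (y axis) for 11 genes, with bars of 1 SE and a dashed line of equality. The 6 genes in red have opposite signs, and Psma4 lies farthest from the line.

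Across samples, the members spread most in the library labelled heterozygous replicate 3. Each member was set against its wildtype mean after the dye effect was removed, and the interquartile range of these deviations was 0.61 in that library and 0.17 to 0.38 in the other 7 samples. All genes tested also spread most in that library, with 0.51 there and 0.18 to 0.35 elsewhere. In that library, 6 members lay more than 0.5 above and 7 lay more than 0.5 below their wildtype mean. Psmb10 was the highest there (1.33) and Psmb1 the lowest (-0.90). The members' median was 0.20 in that library and 0.10 in heterozygous replicate 4, which shared its array, while all genes had medians of -0.02 in both. In heterozygous replicates 1 and 2 the members' median was 0.006 and -0.04, so the heterozygous samples did not move alike.

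**Figure D5:**
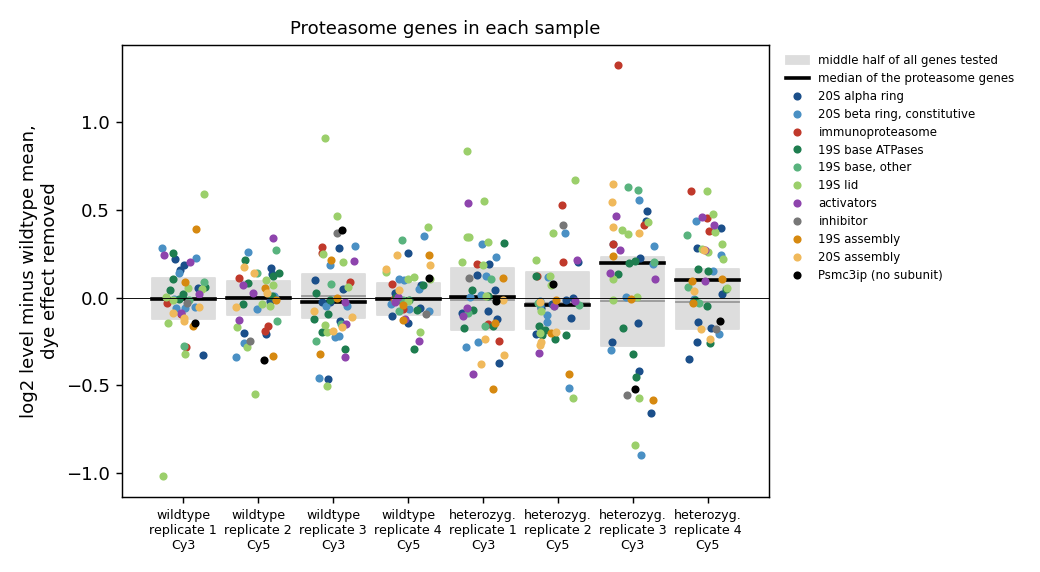
Deviation of each tested member from its wildtype mean (y axis, log2, dye effect removed) in each of the 8 samples (x axis), coloured by role, with a black bar for the members' median and a grey box from the first to the third quartile of all genes tested. The members of the library labelled heterozygous replicate 3 are the most scattered, from -0.90 to 1.33.

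Other genes of the pathway also showed no genotype difference past the threshold. Of 24 genes that work with the proteasome but fall outside the name rule, 23 were tested. A positive difference was found for 15 of these (65.2%), against 45.6% of all genes. At an unadjusted p below 0.05 there were 0, against 8.69% of all genes. Their median difference was 0.09. The smallest p belonged to Vcp, the ATPase that extracts ubiquitinated proteins, with 0.32 (SE 0.145, adjusted p = 0.588 in limma), and to Txnl1, a thioredoxin bound to the cap, with 0.26 (SE 0.129, adjusted p = 0.604). Nfe2l1 had a difference of 0.25 (SE 0.195) and Nfe2l2, the related factor of the oxidative stress response, 0.04 (SE 0.152). The core assembly factor Pomp had 0.11 (SE 0.192) and the cap's ubiquitin receptor Adrm1 0.27 (SE 0.217). The lid subunit Sem1 had -0.08 (SE 0.186), with 2 wildtype samples left out as outliers.

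Genes that supply ubiquitin gave 9 tested differences with a median of -0.04. Of these, 4 were positive (44.4%) and 0 had an unadjusted p below 0.05, against 45.6% and 8.69% of all genes. Antigen processing genes, mostly of class I and listed for their link with the immunoproteasome, gave 13 tested differences of 15 listed, with a median of 0.17. The list also holds Cd74, a chain of class II presentation, with its highest difference, 0.57 (SE 0.313), and the transcription factor Irf8 with -0.02. Among the 13, 10 were positive (76.9%) and 0 had an unadjusted p below 0.05, beside the same shares of all genes. A list of 13 genes is small for such shares. The smallest p in this list belonged to the chaperone Canx, with -0.30 (SE 0.138, adjusted p = 0.591 in limma), and to the transcription factor Irf1, with 0.29 (SE 0.155, adjusted p = 0.628). Tap2, 104 kb from the Brd2 probe, had 0.17 (SE 0.153). Other genes of this list also lie on chromosome 17, where the Brd2 probe is at chr17:34248982-34249041 (mm9). They are H2-K1 at chr17:34133055-34133114 with 0.30, Tapbp at chr17:34065963-34066022 with 0.26 and H2-D1 at chr17:35403886-35403945 with 0.16. The part of their place on the chromosome of the insertion in the positive share was not tested. Tap1 and Erap1 were not tested, since Tap1 exceeded background in 0 wildtype and 2 heterozygous samples and Erap1 in 1 and 2.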

How the data were processed

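Striatal RNA of 4 wildtype and 4 heterozygous samples was amplified and hybridized as 2-colour Agilent arrays. Spot intensity (linear scale, mean and local background) was extracted with Agilent Feature Extraction 10.7.3.1, per the file headers. The series' deposited value table holds, as found from its values, the ratio of a spot's background-subtracted median intensity to its column's median (median 1 in every column); it served as an alternative.

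Background correction was normexp (offset 50); loess normalization within arrays and Aquantile between arrays followed, and values were analysed as single log2 channels in limma 3.58.1 with genotype and dye as fixed terms and the array, which held 1 genotype, as a random block (correlation 0.008). Outlier spots were left out. Probes well above background in at least 4 of 8 samples were kept (25338 of 39429), and p-values were Benjamini-Hochberg adjusted over 19844 genes. Second probes were fitted over all 25325 probes. The model fit was tested on simulated gene values with independent noise, which left out normalization, the filter, the choice of probe and the shared array. Promoters are RefSeq's.

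Members and gene lists were chosen with earlier results of these data known. Values in every sample are given for the catalytic subunits, the 3 members with the smallest p in each direction and the one with the widest range; other lists are counted, with the 2 smallest p of each pathway list, except that single ubiquitin genes are not reported here. Alternatives were the scanner software's processed intensity, the deposited table, other background corrections, normalizations, filters, probe rules and covariates, each dye alone, and each sample left out.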

Additional observations from a re-analysis of the deposited data

Results flagged for a closer look

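With the dye effect removed, 89 groups of 4 samples (a member in 1 genotype) were examined for a sample far from the other 3, by the gap to its nearest neighbour as a share of the group's range, against Dixon's critical value at the 95% level. Chance alone gives about 1 in 20 such groups, and 4 of the 89 were found. For Psmb10, the immunoproteasome subunit, wildtype replicate 1 was at 12.01 and the other wildtype samples at 12.37 to 12.40 (share 0.904). For the base ATPase Psmc2, wildtype replicate 3 was at 13.52 against 13.76 to 13.80 (0.852). Heterozygous replicate 1 was low for the cap chaperone Psmd10, at 9.20 against 9.31 to 9.33 (0.856). For the core chaperone Psmg3, the library labelled heterozygous replicate 3 was high, at 10.90 against 10.02 to 10.15 (0.849).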

How the results depend on the processing

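Among 23 alternatives, 8 of which leave out 1 sample, 0 members passed the threshold except where it was set on the unadjusted p, which 5 members and 1725 of all genes passed. The count over all genes was 1 with the mean of a gene's probes and 1 in Cy5 samples alone. Psmb10 kept a positive difference in all alternatives (0.40 to 0.87; 0.66 at the unadjusted threshold, which it passed), as did Psmb8 (0.03 to 0.43). The median of the constitutive core was -0.084 with processed intensities and -0.17 with the deposited table, and -0.043 to 0.063 with 1 sample left out. The cap's median was -0.071 with the deposited table, 0.12 in Cy3 and -0.059 in Cy5 samples. Signs turned for Psmb5 with processed intensities (-0.014), the deposited table (-0.020) and Cy5 alone (-0.085), for Psmb9, Psmb6 and Psmb7 in Cy3 alone (-0.083, 0.081 and -0.025), for Psmb1 in Cy5 alone (0.049), and with 1 sample left out for Psmb6 (-0.34 to 0.0094, positive without heterozygous replicate 2) and Psmd8 (-0.086 to 0.88, negative without wildtype replicate 1). The cause was not tested. Psme4 could not be tested where a probe had to be well above background in all 8 samples. With the replicate number as a block, the count of members called was 0, Psmb10 was 0.66 (adjusted p 0.442 in limma), and no call was changed. Deviations of same-numbered samples had correlations of 0.16, -0.29, -0.18 and -0.25. Samples of unlike number were not compared, so these values cannot settle whether the numbers pair the samples. The small number of arrays limits the precision of all these values.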
